A study of Mus musculus with 6 samples.

Results

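Cholesterol metabolism in gonadal white adipose tissue (GWAT) was followed through 31 genes chosen by name and function, with earlier results of these data known. They were 17 enzymes of cholesterol synthesis, 3 lipoprotein receptors, 3 genes of sterol sensing and 8 genes of cholesterol storage, transport and efflux. Of these, 30 were among the 19937 genes with a probeset of a single symbol, and *Soat1*, whose enzyme esterifies cholesterol, was not analysed here. GWAT came from chow-fed male mice aged 4 months that were either *ob/ob/Fsp27-/-*, lacking both leptin and Fsp27, or *ob/ob*, lacking leptin alone. Leptin deficiency was therefore common to both genotypes, and the methods give a C57BL/6J background. RNA was hybridized to 6 GeneChip Mouse Gene 1.0 ST arrays, 3 per genotype. Per the methods, an array held RNA pooled from 3 mice, whereas the labels name 1 number per array, so n counts arrays and the spread between single mice is unknown. Values are on the log2 scale of the Robust Multi-array Average (RMA), on which the median of an array lay between 6.02 and 6.10, and they can be compared between arrays but not between genes.

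Cells obtain cholesterol by making it from acetyl-CoA through the mevalonate pathway or by taking up lipoproteins. When membrane sterol is low, Scap escorts the SREBP transcription factors out of the endoplasmic reticulum and they switch on the enzymes of synthesis, whereas Insig proteins hold them back when sterol is plentiful. White adipocytes make little cholesterol but hold a large store of it in the lipid droplet and its surface, and macrophages that clear dying adipocytes take up that store and export it through ABC transporters to apolipoproteins.

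Genotypes were compared with limma over 22961 probesets, and calls needed an adjusted p under 0.05 together with a log2 difference of 0.5 or more either way. Fold changes are *ob/ob/Fsp27-/-* minus *ob/ob* throughout. Of the 30 members, 9 (30%) were called higher in *ob/ob/Fsp27-/-* GWAT and 8 (26.7%) lower, against 9.58% and 10.8% of all genes, and 20.4% of all genes in either direction. The 3 arrays of each genotype did not overlap for 21 members (70.0%), and for 46.0% of all genes. The median log2 fold change of the members was 0.18, and that of all genes 0.06. All 4 classes held genes of both directions. The synthesis enzymes had 5 higher and 3 lower genes of 17 (median 0.20), and the storage and efflux genes 1 higher and 3 lower of 7 (median −0.12). Whether these classes differ from each other was not tested. Centring the arrays on housekeeping genes turned the balance of all calls to 2506 higher and 1808 lower, against 1910 and 2158 as deposited, and gave 10 higher and 7 lower members.

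**Figure D1:**
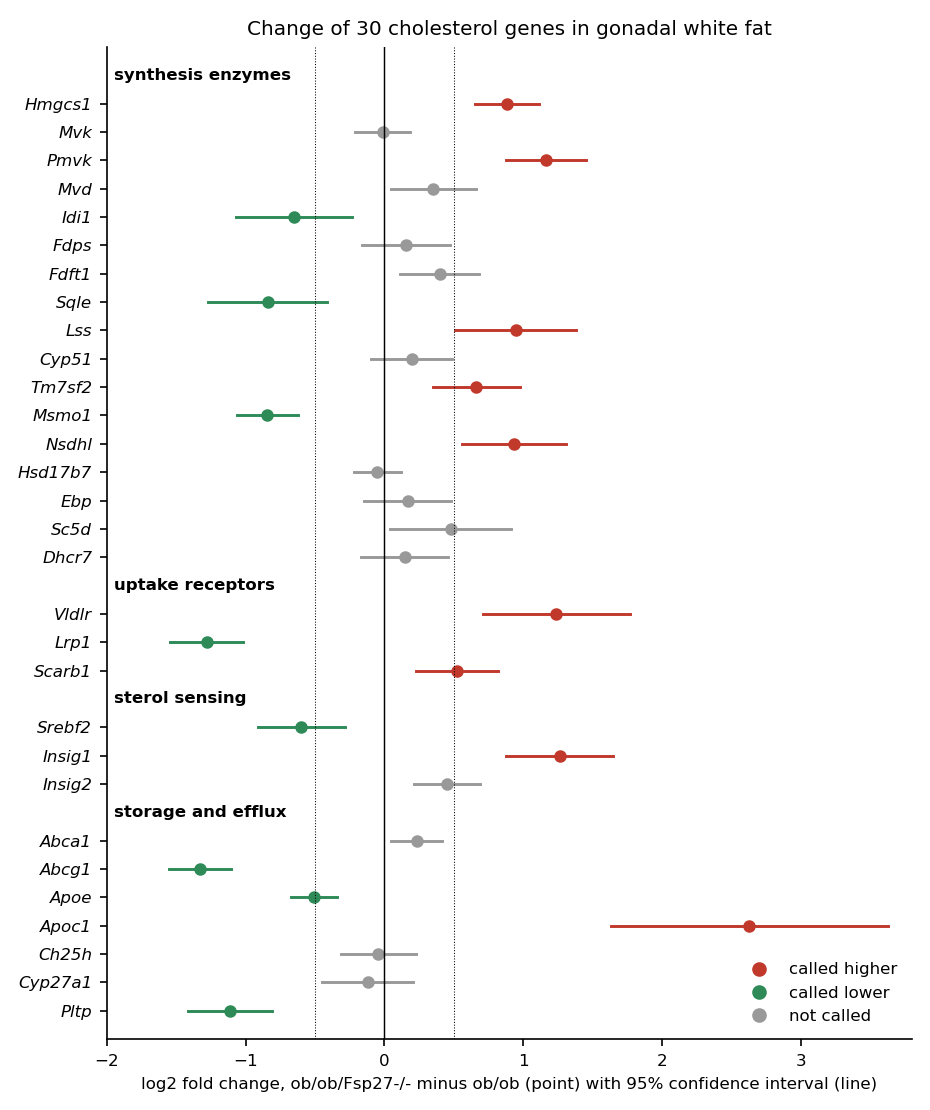
Log2 fold change (*ob/ob/Fsp27-/-* minus *ob/ob*) of the 30 measured members by class, with 95% confidence intervals from limma. Red marks the 9 genes called higher, green the 8 called lower and grey the 13 not called, and dotted lines stand at the fold threshold of 0.5; the change of *Apoc1*, 2.63, is the largest in size.

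Of the 6 enzymes that make mevalonate and turn it into isoprenoid units, 2 were called higher, 1 lower and 3 were not called. *Hmgcs1*, which encodes the cytosolic synthase that forms HMG-CoA, read 11.37, 11.32 and 11.47 in *ob/ob/Fsp27-/-* arrays, against 10.35, 10.50 and 10.65 in *ob/ob* arrays. Its log2 fold change was 0.88 (standard error (SE) 0.098, limma adjusted p = 0.000777), with every *ob/ob/Fsp27-/-* array above every *ob/ob* array. *Pmvk*, the phosphomevalonate kinase gene, showed the largest increase among the enzymes, at 7.95, 8.03 and 7.89 in *ob/ob/Fsp27-/-* arrays and 6.60, 6.75 and 7.04 in *ob/ob* arrays. That is a log2 fold change of 1.16 (SE 0.12, limma adjusted p = 0.000605), or 2.24-fold. The kinase gene *Mvk*, one step before *Pmvk*, did not pass, with a log2 fold change of −0.01 and a 95% confidence interval of −0.21 to 0.19. *Mvd*, the decarboxylase gene one step after it, did not pass either (0.35, 95% confidence interval 0.05 to 0.66, adjusted p = 0.0861 from limma), and its arrays overlapped between genotypes.

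*Idi1* encodes the isomerase that balances the isoprenoid units. It was called lower, at 7.85, 7.60 and 8.29 in *ob/ob/Fsp27-/-* arrays, against 8.47, 8.73 and 8.49 in *ob/ob* arrays (log2 fold change −0.65, SE 0.18, limma adjusted p = 0.0307). The call did not hold for its other probeset. This second *Idi1* probeset read 7.82, 8.08 and 8.25 in *ob/ob/Fsp27-/-* arrays and 8.22, 8.24 and 8.34 in *ob/ob* arrays, which overlap, and its log2 fold change of −0.21 did not pass (adjusted p = 0.236 from limma). The first probeset missed the threshold as well when any single *ob/ob* array was left out, or array 1 or 2 of the *ob/ob/Fsp27-/-* genotype, with adjusted p from 0.0550 to 0.109 (limma). With the mean of a gene's probesets, *Idi1* had a log2 fold change of −0.43 and was not called. That setting gave 2 lower synthesis enzymes and 7 lower members. *Fdps*, which encodes farnesyl diphosphate synthase, had a log2 fold change of 0.15 (95% confidence interval −0.16 to 0.47) and overlapping arrays.

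Between farnesyl diphosphate and lanosterol, neighbouring steps went opposite ways. *Sqle*, encoding squalene epoxidase, a rate-limiting enzyme of the later pathway, was lower, at 7.52, 6.92 and 7.44 in *ob/ob/Fsp27-/-* arrays, against 8.37, 8.09 and 7.95 in *ob/ob* arrays (log2 fold change −0.84, SE 0.18, limma adjusted p = 0.0124). *Lss*, the gene of lanosterol synthase, which acts on the product of Sqle, was higher, at 8.89, 9.09 and 9.12 in *ob/ob/Fsp27-/-* arrays and 7.69, 8.13 and 8.43 in *ob/ob* arrays (0.95, SE 0.18, limma adjusted p = 0.00813). Neither gene overlapped between the genotypes. *Fdft1*, the squalene synthase gene ahead of both, passed the p threshold but not the fold threshold, with log2 fold changes of 0.40 and 0.45 for its 2 probesets (adjusted p = 0.0447 and 0.0438 from limma). The first probeset missed the p threshold when array 1 or 2 of *ob/ob*, or array 1 or 3 of *ob/ob/Fsp27-/-*, was left out (limma adjusted p from 0.115 to 0.127). It also missed it after centring on array medians (limma adjusted p = 0.0524).

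Among the 8 enzymes that turn lanosterol into cholesterol, 2 were called higher and 1 lower. *Msmo1*, *Nsdhl* and *Hsd17b7* encode the oxidase, the decarboxylase and the ketoreductase that together remove the methyl groups at carbon 4 of the sterol, and the array values of these partners did not move as one. *Nsdhl* read 10.78, 10.65 and 10.91 in *ob/ob/Fsp27-/-* arrays, against 9.50, 9.96 and 10.08 in *ob/ob* arrays (log2 fold change 0.93, SE 0.16, limma adjusted p = 0.00475). *Msmo1* read 8.27, 8.35 and 8.43 in *ob/ob/Fsp27-/-* arrays, against 9.22, 9.30 and 9.06 in *ob/ob* arrays (−0.85, SE 0.093, limma adjusted p = 0.000755). Both genes kept the genotypes fully apart, in opposite directions. *Hsd17b7* lay between 7.92 and 7.96 in *ob/ob/Fsp27-/-* arrays and between 7.93 and 8.02 in *ob/ob* arrays, with a log2 fold change of −0.05 (95% confidence interval −0.22 to 0.12).

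*Tm7sf2*, one of the sterol reductase genes of this stretch, was the other enzyme called higher, at 7.12, 7.37 and 7.41 in *ob/ob/Fsp27-/-* arrays, against 6.44, 6.62 and 6.86 in *ob/ob* arrays (log2 fold change 0.66, SE 0.13, limma adjusted p = 0.00915). *Sc5d*, the sterol desaturase gene, did not pass at 0.48 (95% confidence interval 0.04 to 0.91, adjusted p = 0.102 from limma), although its arrays did not overlap. *Sc5d* was called without *ob/ob* array 3, the highest of that genotype (log2 fold change 0.65, adjusted p = 0.0254 from limma). The demethylase gene *Cyp51*, the isomerase gene *Ebp* and the reductase gene *Dhcr7* had overlapping arrays and confidence intervals that include 0, which reached from −0.10 to 0.49 for *Cyp51*, −0.15 to 0.48 for *Ebp* and −0.17 to 0.46 for *Dhcr7*.

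**Figure D2:**
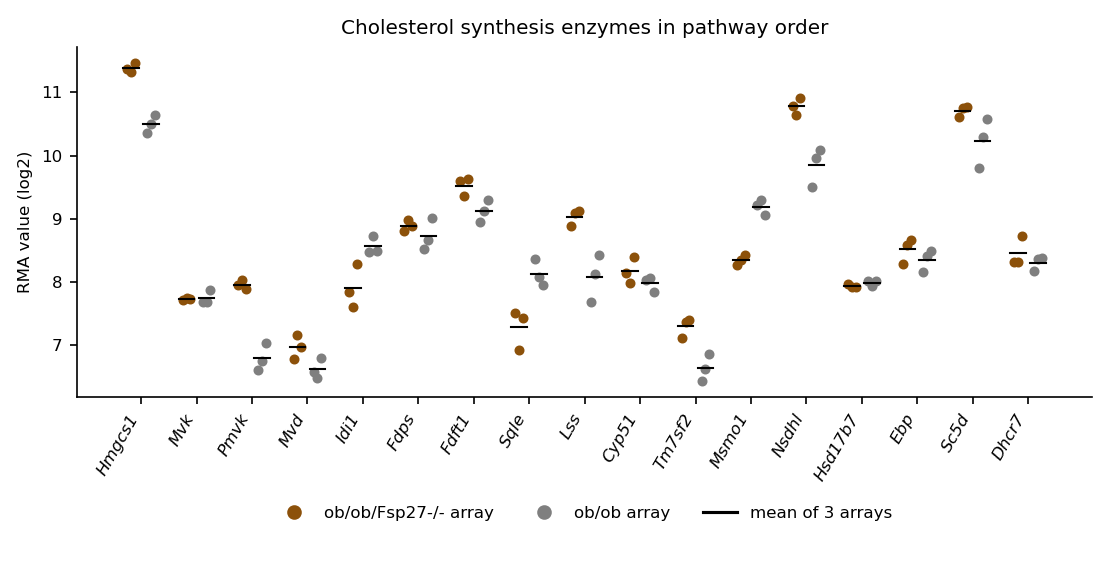
RMA values (log2) of the 17 synthesis enzymes in the order of the pathway, 1 point per array, with *ob/ob/Fsp27-/-* in brown, *ob/ob* in grey and a bar at the mean of 3 arrays. The genotypes stand apart with *ob/ob/Fsp27-/-* above for 7 enzymes and below for 3, and overlap for 7.

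A short motif in front of the start sites was shared by enzymes with opposite changes and by enzymes that were not called. In the 250 bases upstream of RefSeq start sites (GRCm38.p6), the pentamer CCAAT on either strand, which the factor NF-Y binds next to SREBP in many sterol-responsive promoters, stood in all 14 synthesis enzymes with a promoter window. A gene counted if any of its windows held the pentamer, and *Pmvk* held it in 1 of its 2 windows. The pentamer stood in 38.8% of the 15613 measured genes with a window and in 33.8% of all 32851 windows. All 3 sterol sensing genes held it, as did 1 of the 2 receptor genes and 2 of the 5 storage and efflux genes with a window. The sterol regulatory element TCACNCCAC was found for *Hmgcs1* alone among the 24 measured members with a window, and in 1.05% of all windows. The shorter CACCCCAC, found in 2.58% of all windows, lies within that match and was found in no other member. AGGTCA repeated after a gap of 4 bases, a pattern that nuclear receptor pairs such as LXR and RXR bind, was found in none. That exact repeat stood in only 5 of all 32851 windows (0.0152%), so its absence says nothing particular about the members. These are matches of letters in a short window, not measured binding, and nothing follows for a factor where they are missing.

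The 150 bases before the first listed start site are printed for the 7 called enzymes with a window, 5 higher and 2 lower. They set the stretches of genes that changed in opposite directions side by side. Capitals mark the pentamer (CCAAT, or ATTGG where it is read on the other strand) and, in *Hmgcs1*, the sterol regulatory element TCACCCCAC. Each runs 5′ to 3′ in the direction of its gene.
*Hmgcs1*, higher, chr13:119690201-119690350, + strand: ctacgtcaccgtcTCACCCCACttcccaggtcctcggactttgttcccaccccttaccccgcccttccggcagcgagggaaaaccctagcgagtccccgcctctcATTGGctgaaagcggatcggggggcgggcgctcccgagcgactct
*Pmvk*, higher, chr3:89454391-89454540, + strand: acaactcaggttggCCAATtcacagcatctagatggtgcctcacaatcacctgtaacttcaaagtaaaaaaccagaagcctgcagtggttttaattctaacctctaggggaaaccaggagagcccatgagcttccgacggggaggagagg
*Lss*, higher, chr10:76531455-76531604, + strand: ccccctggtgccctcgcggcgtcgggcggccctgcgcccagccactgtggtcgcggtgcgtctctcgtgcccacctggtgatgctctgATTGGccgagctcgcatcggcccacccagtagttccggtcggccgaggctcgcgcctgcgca
*Tm7sf2*, higher, chr19:6067851-6068000, − strand: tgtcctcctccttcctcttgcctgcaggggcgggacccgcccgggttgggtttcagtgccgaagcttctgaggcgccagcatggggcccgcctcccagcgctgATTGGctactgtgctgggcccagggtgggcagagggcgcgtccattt
*Nsdhl*, higher, chrX:72918371-72918520, + strand: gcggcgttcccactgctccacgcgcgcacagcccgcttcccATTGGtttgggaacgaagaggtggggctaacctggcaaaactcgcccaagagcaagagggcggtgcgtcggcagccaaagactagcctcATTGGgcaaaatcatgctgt
*Idi1*, lower, chr13:8885456-8885605, + strand: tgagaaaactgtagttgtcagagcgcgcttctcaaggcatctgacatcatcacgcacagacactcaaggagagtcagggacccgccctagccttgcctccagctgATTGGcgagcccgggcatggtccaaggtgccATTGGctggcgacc
*Msmo1*, lower, chr8:64733579-64733728, − strand: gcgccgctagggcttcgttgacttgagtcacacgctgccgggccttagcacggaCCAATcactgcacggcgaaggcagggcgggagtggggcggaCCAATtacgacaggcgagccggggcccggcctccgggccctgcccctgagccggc

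The pentamer was present once in the printed stretches of *Hmgcs1*, *Pmvk*, *Lss* and *Tm7sf2*. It was present 2 times in those of *Nsdhl*, *Idi1* and *Msmo1*. Since all 14 synthesis enzymes with a window held it, its presence could not part the enzymes that rose from those that fell.

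**Figure D3:**
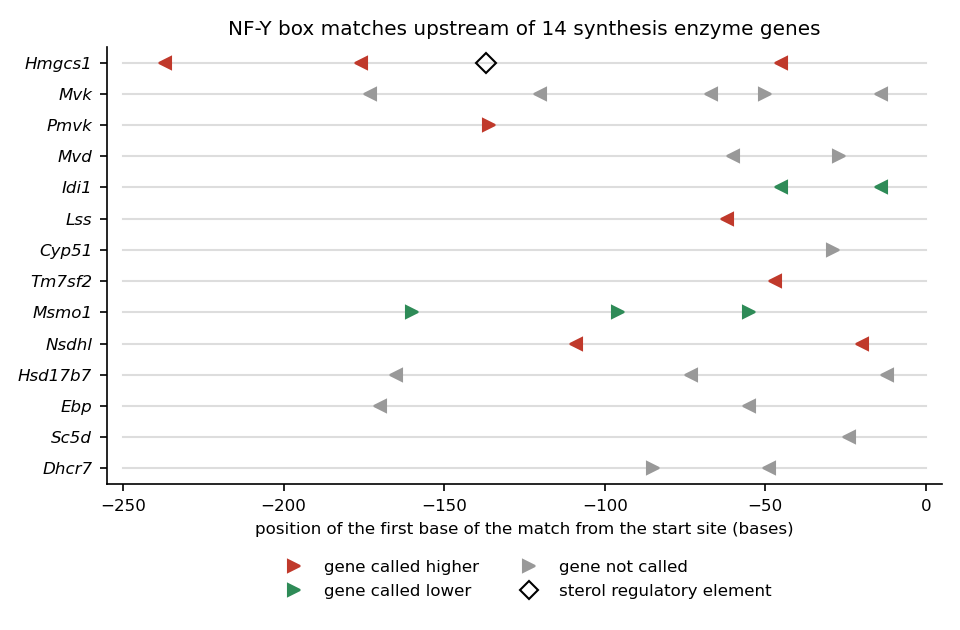
Matches of the NF-Y pentamer in the 250 bases upstream of the start site of 14 synthesis enzymes, by distance from the start site in bases. Triangles point right for the gene's own strand and left for the other strand, with red for genes called higher, green for lower and grey for not called; the diamond is the sterol regulatory element of *Hmgcs1*, at position −137.

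Of the 3 receptors that bring lipoproteins into cells, 2 were called higher and 1 lower. *Vldlr*, whose receptor takes up triglyceride-rich particles and helps lipoprotein lipase deliver fat to adipocytes, was higher in *ob/ob/Fsp27-/-* GWAT, at 10.59, 10.65 and 10.82, against 8.92, 9.59 and 9.85 in *ob/ob* arrays. Its log2 fold change was 1.24 (SE 0.22, limma adjusted p = 0.00605). *Scarb1*, the receptor gene for selective uptake from high-density lipoprotein, read 9.84, 9.95 and 10.19 in *ob/ob/Fsp27-/-* arrays and 9.31, 9.46 and 9.63 in *ob/ob* arrays (0.53, SE 0.13, limma adjusted p = 0.0185). That call lies close to both thresholds, and *Scarb1* missed the p threshold when array 1 or 2 of the *ob/ob* genotype, or array 2 or 3 of the *ob/ob/Fsp27-/-* genotype, was left out, with adjusted p from 0.0503 to 0.0631 (limma). *Lrp1*, which encodes a large endocytic receptor for remnants and other ligands, went the opposite way, at 10.55, 10.64 and 10.30 in *ob/ob/Fsp27-/-* arrays, against 11.89, 11.74 and 11.71 in *ob/ob* arrays (−1.28, SE 0.11, limma adjusted p = 0.000285). None of the 3 receptors overlapped between the genotypes.

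Of the 3 sterol sensing members, *Insig1* was called higher and *Srebf2* lower. The other SREBP gene, *Srebf1*, is not a member and was called higher (log2 fold change 1.37). *Insig1*, which encodes the protein that retains the Scap and SREBP complex and is itself an SREBP target, was higher, at 11.89, 11.78 and 11.90 in *ob/ob/Fsp27-/-* arrays, against 10.24, 10.62 and 10.92 in *ob/ob* arrays (log2 fold change 1.26, SE 0.16, limma adjusted p = 0.00150). *Insig2*, its relative, passed the p threshold with a log2 fold change of 0.45 (95% confidence interval 0.21 to 0.69, adjusted p = 0.0143 from limma), short of the fold threshold. It was called without *ob/ob* array 2 (0.50) and with housekeeping centring (0.54). *Srebf2*, the gene of SREBP2, the main activator of cholesterol synthesis, was lower, at 7.73, 7.80 and 7.54 in *ob/ob/Fsp27-/-* arrays, against 8.53, 8.09 and 8.25 in *ob/ob* arrays (−0.60, SE 0.13, limma adjusted p = 0.0136). Without *ob/ob* array 1, the highest value, its log2 fold change of −0.48 no longer reached the fold threshold.

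Among the genes of export, transport and storage, *Apoc1* rose and 3 others fell. *Apoc1* encodes a small apolipoprotein that macrophages and adipocytes both make. It showed the largest change of all members, at 11.72, 12.01 and 11.65 in *ob/ob/Fsp27-/-* arrays, against 8.08, 9.58 and 9.83 in *ob/ob* arrays (log2 fold change 2.63, SE 0.42, limma adjusted p = 0.00373), or 6.18-fold. The *ob/ob* arrays were far apart, with array 1 well under the other two, and without that array the log2 fold change was 2.09. *Apoe*, next to *Apoc1* on the chromosome in the mouse RefSeq annotation, was called in the opposite direction. It read 11.77, 11.76 and 11.73 in *ob/ob/Fsp27-/-* arrays, against 12.28, 12.29 and 12.23 in *ob/ob* arrays (−0.51, SE 0.070, limma adjusted p = 0.00189). The genotypes of *Apoe* stood clearly apart with little spread, but the change lay at the fold threshold, which it missed after centring on array medians (−0.50), housekeeping centring (−0.42) and cyclic loess (−0.49), and when array 2 of *ob/ob* GWAT (−0.50) or array 3 of *ob/ob/Fsp27-/-* GWAT (−0.50) was left out.

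Of the sterol transporter genes, *Abcg1* was called and *Abca1* was not. *Abcg1*, whose transporter loads cholesterol onto high-density lipoprotein, was lower, at 8.79, 8.97 and 8.95 in *ob/ob/Fsp27-/-* arrays, against 10.33, 10.11 and 10.26 in *ob/ob* arrays (log2 fold change −1.33, SE 0.095, limma adjusted p = 0.000143). *Abca1*, whose transporter serves lipid-poor apolipoproteins, read 10.89, 10.90 and 10.96 in *ob/ob/Fsp27-/-* arrays and 10.59, 10.74 and 10.72 in *ob/ob* arrays. These did not overlap, but the difference of 0.23 did not pass (95% confidence interval 0.05 to 0.42, adjusted p = 0.0638 from limma). *Pltp*, which encodes the phospholipid transfer protein that remodels high-density lipoprotein, was lower, at 10.57, 11.06 and 10.73 in *ob/ob/Fsp27-/-* arrays, against 11.92, 11.87 and 11.91 in *ob/ob* arrays (−1.11, SE 0.13, limma adjusted p = 0.000907).

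The enzymes that make oxysterols gave no call. *Cyp27a1*, the sterol 27-hydroxylase gene, had overlapping arrays and a log2 fold change of −0.12 (95% confidence interval −0.45 to 0.21). *Ch25h*, the cholesterol 25-hydroxylase gene, lay between 4.15 and 4.32 in *ob/ob/Fsp27-/-* arrays and between 4.08 and 4.46 in *ob/ob* arrays. These values are under the median of every array, where little signal stands over background, so a change of *Ch25h* would be hard to see.

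**Figure D4:**
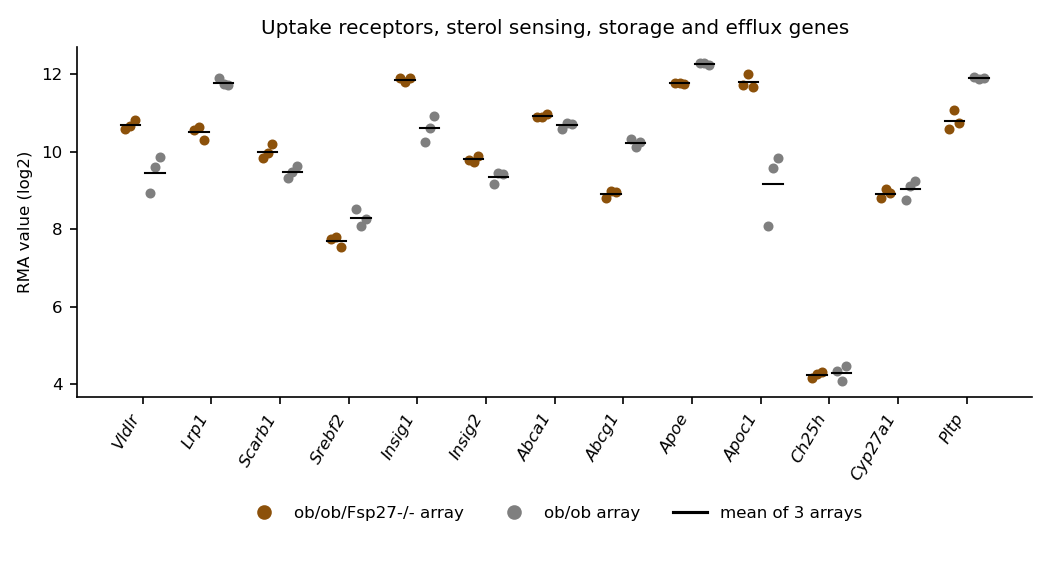
RMA values (log2) of the 13 measured genes of uptake, sterol sensing, storage and efflux, 1 point per array, with *ob/ob/Fsp27-/-* in brown, *ob/ob* in grey and a bar at the mean of 3 arrays. *Ch25h* and *Cyp27a1* overlap between the genotypes and the other 11 do not; the *ob/ob* points of *Apoc1* spread from 8.08 to 9.83.

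The wider pathway was taken from 5 further lists with 66 genes, 59 of them measured, of which 10 were called higher and 9 lower (16.9% and 15.3%, against 9.58% and 10.8% of all genes). The largest decrease among them was that of *Nceh1*. This gene of a neutral cholesteryl ester hydrolase of macrophages read 7.98, 7.80 and 7.74 in *ob/ob/Fsp27-/-* arrays, against 11.41, 11.11 and 10.84 in *ob/ob* arrays (log2 fold change −3.28, adjusted p = 3.19e-05 from limma). *Lipa*, the lysosomal acid lipase gene, read 10.05, 10.18 and 10.22 in *ob/ob/Fsp27-/-* arrays, against 12.50, 12.21 and 12.01 in *ob/ob* arrays (−2.09, adjusted p = 9.61e-05 from limma). *Lipe*, whose hormone-sensitive lipase hydrolyses cholesteryl esters as well as fat in adipocytes, was higher (0.85, adjusted p = 0.0171 from limma), as was *Apod*, which encodes an apolipoprotein of the lipocalin kind (1.22). The oxysterol hydroxylase gene *Cyp7b1* was lower (−0.88). Of the 11 measured genes in the list of other efflux, ester and oxysterol genes, *Lipe* and *Apod* were thus called higher and *Nceh1* and *Cyp7b1* lower, and 7 did not pass.

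Of 11 sterol control genes, 3 were higher and 1 lower. *Srebf1*, the gene of the SREBP that drives fatty acid synthesis, had a log2 fold change of 1.37 (9.70, 9.81 and 9.71 in *ob/ob/Fsp27-/-* arrays, against 8.0, 8.30 and 8.81 in *ob/ob* arrays), so that both SREBP genes were called, in opposite directions. The oxysterol receptor gene *Nr1h3* (LXR alpha, 0.83) and its partner *Rxra* (0.74) were higher, and *Erlin1*, whose protein takes part in degradation at the endoplasmic reticulum, was lower (−1.0). Among 13 other lipoprotein and scavenger receptors, *Olr1* (1.02) and *Sorl1* (0.78) were higher, and *Msr1* (−3.27), *Lrp12* (−1.42) and *Lrp8* (−0.54) lower. Of 17 genes of intracellular cholesterol transport, the peroxisomal carrier gene *Scp2* (1.0) and *Gramd1c* (0.54) were higher, and *Lipa*, *Osbpl8* (−1.93) and *Stard3* (−0.53), the last encoding a sterol carrier of late endosomes, were lower. In the isoprenoid branch, *Fntb*, a farnesyltransferase subunit gene, was higher (1.10), and the other 6 of 7 measured genes did not pass.

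Cell type markers also differed between the genotypes. Of 24 macrophage markers, 23 were lower in *ob/ob/Fsp27-/-* GWAT and none was higher, *Cd163* being the one that did not pass. Their mean level was 7.91, 8.08 and 8.06 in *ob/ob/Fsp27-/-* arrays, against 10.46, 10.35 and 10.25 in *ob/ob* arrays. The most highly read of them were *Lyz2*, *C1qb* and *Lgals3*, with log2 fold changes of −1.82, −2.12 and −2.64. Of 11 adipocyte markers, 8 were higher and none lower, and their mean level was 12.06, 12.08 and 12.13 in *ob/ob/Fsp27-/-* arrays, against 10.76, 11.25 and 11.53 in *ob/ob* arrays. *Lpl*, *Dgat2* and *Fabp4*, the most highly read adipocyte markers, averaged 12.78, 12.93 and 12.67 in *ob/ob/Fsp27-/-* arrays, against 12.72, 12.31 and 12.36 in *ob/ob* arrays. These were picked for their mean over the 6 arrays, so their high level does not stand for the other adipocyte markers. Log2 fold changes of the 11 adipocyte markers ran from 0.07 to 2.35. *Lipe* stands in this list as well as among the ester genes. Endothelial markers were higher for 5 of 8 genes and stromal markers lower for 5 of 8. Of 5 markers of epididymis and testis, 1 was lower and none higher, and their mean level was 5.43, 5.16 and 5.06 in *ob/ob/Fsp27-/-* arrays, against 5.07, 5.53 and 5.41 in *ob/ob* arrays. The one that passed was the protamine gene *Prm1*, at 6.2, 6.05 and 6.18 in *ob/ob/Fsp27-/-* arrays, against 6.65, 7.41 and 7.15 in *ob/ob* arrays (log2 fold change −0.93, limma adjusted p = 0.00865), and *Prm2* read 6.23, 6.35 and 6.36 in *ob/ob/Fsp27-/-* arrays and 6.07, 7.0 and 6.89 in *ob/ob* arrays, which overlap. *Adam7*, also in this list, read 5.90 in *ob/ob/Fsp27-/-* array 1 and 4.03 and 4.0 in arrays 2 and 3, against 3.85, 4.61 and 4.03 in *ob/ob* arrays. *Lcn5* did not stand out on that first array, at 4.56. Both read under the median of every array, and a difference in epididymal tissue between arrays was not tested. In bulk tissue, fewer cells of a type and less RNA per cell cannot be told apart, and the part of cell composition in the changes of *Abcg1*, *Apoe*, *Pltp*, *Lrp1* and the other members was not tested.

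The members called higher had the same order on the *ob/ob* arrays. Array 1 was the lowest of the 3 *ob/ob* arrays for all 9 of them, and array 3 the highest. For comparison, array 1 was the lowest for all 11 adipocyte markers, for 77.3% of all genes called higher and for 34.3% of all genes. The full order, rising from array 1 through 2 to 3, held for all 9 members and for 9 of the 11 adipocyte markers. It held for 1182 of the 1910 genes called higher and for 4492 of all 19937 genes. Array 1 was also the lowest in the mean levels of endothelial, stromal, and epididymis and testis markers, but there array 2 was the highest. Mean levels on *ob/ob* arrays 1, 2 and 3 were 8.40, 8.91 and 8.90 for endothelial and 9.78, 9.89 and 9.87 for stromal markers. For markers of epididymis and testis they were 5.07, 5.53 and 5.41. Of the 8 members called lower, 5 had their highest *ob/ob* value on array 1, as had 14 of the 24 macrophage markers, 66.7% of all genes called lower and 36.4% of all genes. *Idi1*, *Msmo1* and *Apoe* were highest on *ob/ob* array 2. Without *ob/ob* array 1, 8 members were called higher and 6 lower, with 5 higher and 2 lower synthesis enzymes.

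**Figure D5:**
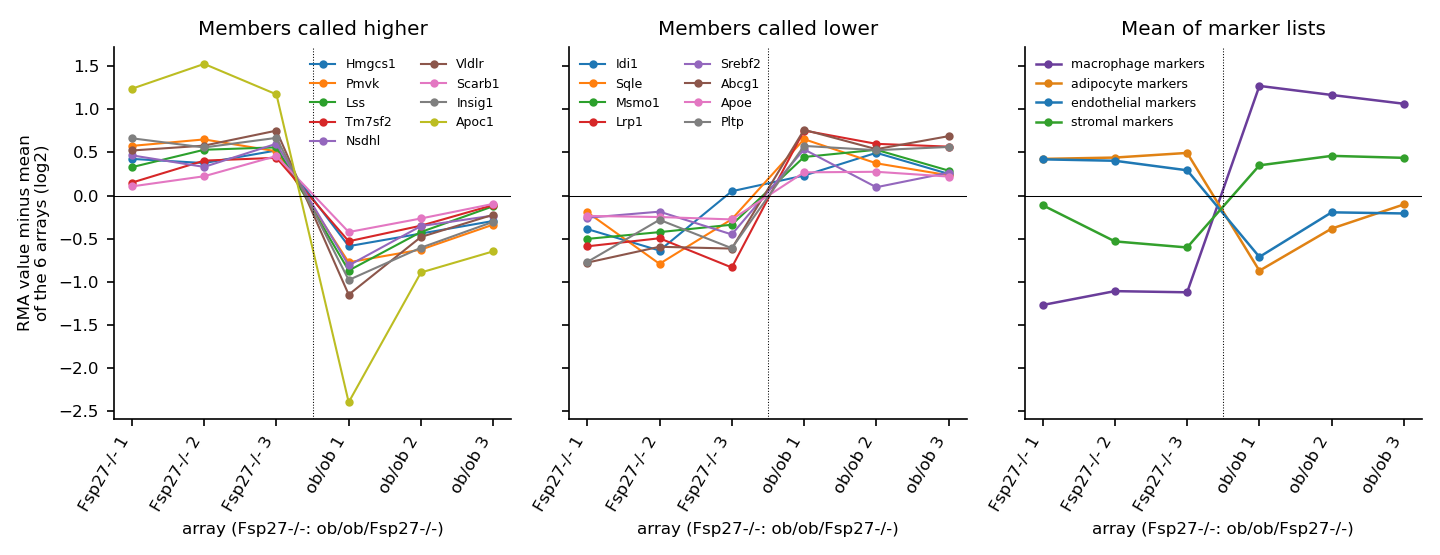
RMA values (log2) minus the mean of the 6 arrays, for the 9 members called higher (left), the 8 called lower (middle) and the means of 4 marker lists (right), with the 3 *ob/ob/Fsp27-/-* arrays left of the dotted line and the 3 *ob/ob* arrays right of it. Lines join the values of 1 gene or list, and arrays of a genotype have no order. Among the *ob/ob* arrays, array 1 is the lowest for the higher members and for the adipocyte, endothelial and stromal markers.

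*Cidec*, which encodes Fsp27, read 11.34, 11.51 and 11.53 in *ob/ob/Fsp27-/-* arrays and 11.49, 11.78 and 11.98 in *ob/ob* arrays, and these overlap (log2 fold change −0.29, adjusted p = 0.157 from limma). The place of its probes in the gene is not given in the sources used here, so this reading cannot check the genotype labels. Pearson correlations over the tested probesets, which are not independent replicates, lay between 0.988 and 0.994 within a genotype and between 0.943 and 0.965 between genotypes.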

How the data were processed

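The authors hybridized pooled GWAT RNA to GeneChip Mouse Gene 1.0 ST arrays and deposited log2 RMA values, background-adjusted, quantile normalized between arrays and summarized per probeset (software versions not given in the sources used here). Quantile normalization gives all arrays 1 distribution, so an overall shift in RNA content would not show. Array files give no read depth, and the number of arrays limits the precision.

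Symbols came from GEO's platform annotation, updated through Entrez numbers for 21553 probesets. Of 34760 probesets, 21640 had 1 symbol, 1321 several and 11799 none. The 22961 with a symbol were tested with limma 3.58.1 (R 4.3.3; lmFit and eBayes, two-sided, Benjamini-Hochberg over all of them), without covariates. Each gene was read from its single-symbol probeset with the highest mean, also for the 954 genes with several. Some genes of the pathway are not reported here. Members and lists were chosen with earlier results of these data known.

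All members are named, with up to 3 called genes per direction of each further list and the 3 most highly read markers of each marker list. *Cd163* and *Adam7* were named after their values were seen. The other marker log2 fold changes were 0.64, 0.77 and 0.41 for *Cdh5*, *Emcn* and *Pecam1*, −0.41, −0.99 and −1.31 for *Dcn*, *Dpt* and *Col1a1*, −0.34 and 0.23 for *Prm2* and *Lcn5*, and −0.18, −0.29 and −0.01 for the housekeeping genes *Eef2*, *Rplp0* and *Ppia*. Promoter windows are those of RefSeq for GRCm38.p6, found for 25 of the 31 listed members. The analysis was tested on simulated data, and 17 other settings were tried.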

Additional observations from a re-analysis of the deposited data

How the results depend on the processing

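Over the settings other than the changed fold thresholds, 422 of 449 member values kept their direction and stayed called or not called as before. Of the rest, 16 lost a call, 3 gained one and 8 turned in sign. A value could cross a single threshold without a change of call, as *Fdft1* did for p. With a log2 fold threshold of 1, 652 genes were higher and 955 lower, with 4 higher and 3 lower members, 1 higher and 0 lower synthesis enzymes, 1 higher receptor gene and 0 lower sterol sensing genes. With no fold threshold, 2936 genes were higher and 3052 lower, and 2 sterol sensing genes were higher. Housekeeping centring also gave 2 higher sterol sensing genes, brought the storage and efflux median to −0.026 and that of all genes to 0.15, and called 58.1% of all called genes higher, against 47.0% as deposited. Keeping only probesets above the median level left out *Ch25h* and gave a storage and efflux median of −0.31. Leaving out 1 array at a time gave 1 to 2 higher sterol sensing genes (2 without *ob/ob* array 2), 0 to 1 lower sterol sensing genes (0 without *ob/ob* array 1), 1 to 2 higher receptor genes (1 when array 1 or 2 of *ob/ob* GWAT, or array 2 or 3 of *ob/ob/Fsp27-/-* GWAT, was left out) and a storage and efflux median of −0.26 without *ob/ob* array 1 to −0.012 without *ob/ob* array 3. Over all genes it gave 1620 to 2120 higher and 1961 to 2346 lower. The changes of sign were all in genes that were not called. With housekeeping centring, *Ch25h* stood at 0.048, *Hsd17b7* at 0.041 and *Mvk* at 0.079, and with array weights *Ch25h* stood at 0.043 and *Mvk* at 0.016. When arrays were left out in turn, *Ch25h* ranged from −0.15 (*ob/ob* array 2) to 0.041 (*ob/ob* array 3), with 0.0039 when *ob/ob/Fsp27-/-* array 1 was left out, and *Mvk* ranged from −0.047 (*ob/ob* array 2) to 0.052 (*ob/ob* array 3). Apart from fewer genes at a stricter threshold, the cause of these differences between settings was not tested. No paired analysis was possible because the genotypes share no replicate numbers in the labels. With 3 arrays per genotype, spread between arrays may be technical, and genes near the low end of the scale, such as *Ch25h*, have little signal over background.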
